A study of Caenorhabditis elegans with 51 samples.

Results

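The PAR polarity genes were followed as a set of 8 named genes: *par-3*, *par-6* and *pkc-3*, whose proteins form the anterior PAR complex, *par-1*, *par-2* and *lgl-1*, whose proteins hold the opposite cortex, and *par-4* and *par-5*, which act with both. They were taken by gene name, all 8 were found, and each is 1 of the 31383 genes in every library. Libraries were made from polyA RNA of *C. elegans* embryos dissected one at a time at the 100 cell stage. Cells that carried a lineage marker were aspirated from the embryo, and the cells left behind became a library of their own. MS+ (MS descendants) and MS- (all other cells) came from a strain that carries pCEH-51::mNG, a reporter driven by the *ceh-51* promoter. D+ and D- came from a strain with pFKH-2::mNG, driven by the *fkh-2* promoter. C-in (the internalizing Cxp descendants), C-out (the Cxa descendants, which stay outside) and C- (all other cells) came from a strain with pR02D3.1::mKate2 and pHLH-1::mNG. No group was mutant or treated, growth was at 20°C, and every group carries the reporter of its own series, so that groups of different series differ in strain as well as in cells. Each marker-positive library therefore holds the cells in which that promoter was seen to be active, drawn off by hand, and not a sorted population. After the rejection of 3 embryos by the authors, 43 libraries from 19 embryos remained, 7 in each MS and each D group and 5 in each C group. Within a series, a replicate number stands for 1 embryo.

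PAR proteins divide the cortex of the zygote into an anterior and a posterior domain that exclude each other. PAR-3 and PAR-6 are scaffolds with PDZ domains, and PKC-3 is the atypical protein kinase C that PAR-6 and CDC-42 control. PKC-3 phosphorylates PAR-1, PAR-2 and LGL-1 and so keeps them from the anterior cortex. PAR-1 is a kinase of the MARK family, PAR-2 is a RING finger protein that is found in nematodes, and LGL-1 is the worm form of the Lgl tumour suppressor. PAR-4 is the worm LKB1 kinase, and PAR-5 is a 14-3-3 protein that binds phosphorylated sites. In later embryos, PAR-3, PAR-6 and PKC-3 gather at the outer, contact-free cell surfaces, and they are used again at the apical surface of epithelia. The positions of these proteins are set largely after translation, and RNA levels in dissected cells do not report them.

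Total counts on genes ranged from 416394 to 3054633 over the 43 libraries, and a count of 0 allows a true level of up to 3 counts, a limit that covers counting error only. For the members this floor came to between 0.19 RPKM (reads scaled by gene length and library size) for *par-3* and 6.01 RPKM for *par-5* in C-out replicate 5, the shallowest library. Libraries of drawn-off cells had between 1496 and 5330 genes above 25 RPKM (median 2374, n = 24), and libraries of the rest of the embryo had between 2272 and 5491 (median 4600, n = 19). The value of 25 RPKM is the detection threshold of the study. The dissection markers were checked before the members. *ceh-51* was above 25 RPKM in 6 of 7 MS+ libraries, *fkh-2* and the muscle gene *hlh-1* each in 6 of 7 D+ libraries, *hlh-1* in all 5 C-in libraries and *R02D3.1* in all 5 C-out libraries. In C-in, *R02D3.1* was above 25 RPKM in 4 of 5 libraries and at 17.6 in replicate 4. That library held 956 RPKM summed over the epidermal genes, against 9.33 to 39.4 in the other C-in libraries. This sum came from *lin-26* (641 RPKM) and *nhr-25* (312). The other epidermal genes stayed low in every C-in library, with highest values of 9.06 for *elt-1*, 6.62 for *elt-3* and 4.52 for *nhr-171*. D+ replicate 8 went against its label, with 2.35 RPKM of *fkh-2*, 7.11 of *hlh-1* and 2061 of *R02D3.1*, and its partner D- replicate 8 had the fewest genes above 25 RPKM of all rest libraries. C-out replicate 1 had 73.9 RPKM of *R02D3.1* against 1020 to 3861 in the other 4 C-out libraries, 113.2 RPKM of *hlh-1*, and the 5330 genes above 25 RPKM that mark the upper end of the drawn-off libraries. It also held 702 RPKM summed over the gut genes and 102 over the germline genes, against 7.43 to 204 and 1.12 to 7.06 in the others. In this library the gut gene *elt-7* alone was at 649 RPKM and the germline gene *nos-2* alone at 86.9. Its partner C- replicate 1 had 393.9 RPKM of *R02D3.1*, against 4.1 to 54.7 in the other C- libraries. Summed over 4 gut genes, MS+ replicates 3 and 4 reached 2707 and 2964 RPKM, while the other 5 MS+ libraries lay between 6.43 and 73.6. In replicate 4 nearly all of this was *elt-7* (2950 RPKM). Replicate 3 also held *end-1* (869) and *elt-2* (77.1), and *end-3* had no count in MS+. Over 6 neuronal genes, MS+ replicates 1, 3 and 5 held 623, 900 and 707 RPKM, against 9.17 to 41.8 in the other MS+ libraries. These sums came from *cnd-1*, *hlh-14* and *hlh-3*, with highest values of 888, 490 and 125 RPKM. The neuronal genes *lin-32*, *unc-86* and *ngn-1* were under 25 RPKM in all 7 MS+ libraries. *ceh-51* was at 8.44 RPKM in MS+ replicate 2. D+ replicate 4 held 1069 RPKM summed over the germline genes, against 0 to 5.06 in the other D+ libraries, and 262 over the epidermal genes. Most of its germline sum was *nos-2* (958 RPKM), with *glh-1* at 60.8 and *glh-2* at 29.9. No other germline gene passed 25 RPKM in D+. In bulk libraries of this kind, fewer cells of a type and less RNA per cell cannot be told apart.

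The 8 genes spanned a wide range of levels. Averaged over all 43 libraries, *par-5* was highest at 284 RPKM, *pkc-3* (60.1) and *par-6* (57) came next, *par-2* (19.6), *lgl-1* (19), *par-1* (18.6) and *par-3* (13.2) followed, and *par-4* was lowest at 1.1. *par-5* was above 25 RPKM in 42 of 43 libraries and *par-4* in 0 of 43. *par-6* and *pkc-3* were above it in 25 libraries each, *par-2* in 13, *lgl-1* in 12, *par-1* in 8 and *par-3* in 7. Rest libraries had between 2 and 7 of the 8 genes above 25 RPKM (median 4), and drawn-off libraries had between 1 and 5 (median 2), beside the difference in the number of all genes above 25 RPKM given above, whose part in this was not tested. All 3 anterior genes were above 25 RPKM together in 4 of 5 C- libraries, 1 of 7 D- libraries and 1 of 5 C-out libraries, and in no library of MS+, MS-, D+ or C-in. All 3 posterior genes were above it together in 1 of the 43 libraries, a C- library.

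**Figure D1:**
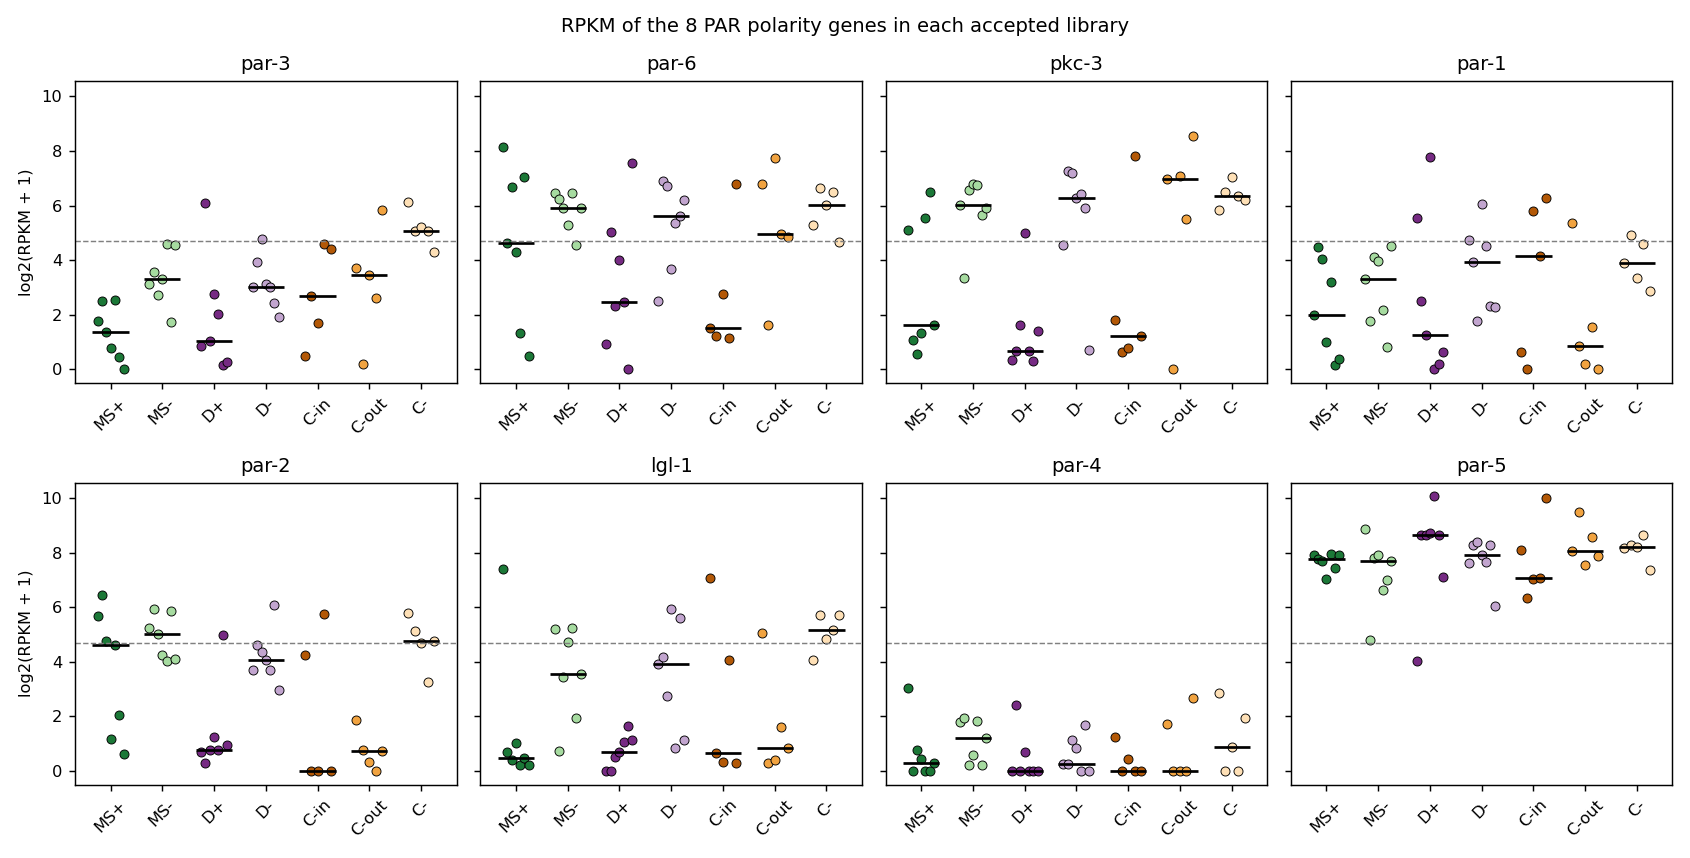
RPKM of each of the 8 genes in every accepted library, plotted as log2(RPKM + 1), with 1 point per library in replicate order, a bar at the group median and a dashed line at 25 RPKM. *par-5* lies above the line in 42 of 43 libraries and *par-4* below it in all 43, while *par-6*, *pkc-3*, *par-2*, *lgl-1* and *par-1* fall near 0 in some libraries of MS+, D+, C-in or C-out and lie above the line in others.

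The drawn-off libraries were close to all or none for several members. *lgl-1* was at 170.0 RPKM in MS+ replicate 1 and between 0.16 and 1.06 in the other 6 MS+ libraries, so that a single library held 98.4% of the MS+ sum. *pkc-3* was at 226.1 RPKM in C-in replicate 5 and between 0.54 and 2.51 in the other 4, a single-library share of 97.8%. *par-1* in C-out had 93.4% of its sum in replicate 1, and *par-6* in C-in had 91.6% in replicate 6. In the rest groups the largest such share among these 4 genes was 47.9%, for *par-1* in D-. Over the 24 drawn-off libraries *lgl-1* and *par-2* each had at most 3 counts in 14, and over the 19 rest libraries neither gene did in any. Genes of like mean level spread as widely: in the drawn-off groups the SD of log2(RPKM + 25) was between 0.04 and 1.15 for *lgl-1*, and the median SD of all genes within 1.5-fold of its mean was between 0.08 and 1.10.

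**Figure D2:**
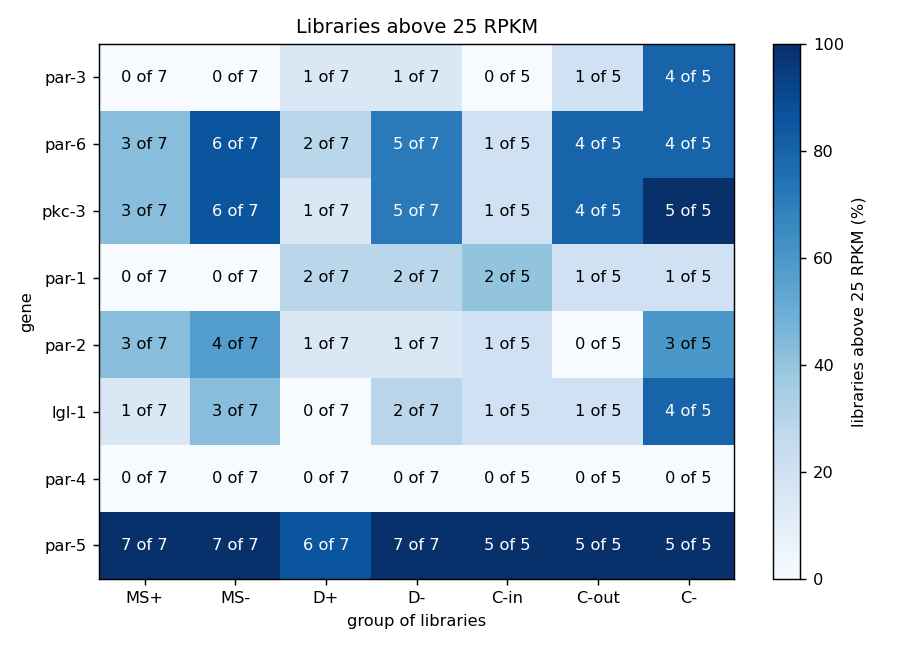
Number of libraries above 25 RPKM for each gene (rows) in each group (columns), with the color giving the share of libraries in percent. *par-5* fills its row except for 1 D+ library, *par-4* is at 0 throughout, and in C- a median of 5 of the 8 genes were above 25 RPKM, the highest of the 7 groups.

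Among the anterior genes, *par-3* was highest in C-. Its 5 values there were 69.8, 32.6, 36.3, 32.2 and 18.9 RPKM (mean 37.9 ± 19 SD), 4 of them above 25. The highest came from replicate 1, the C- library with the most *R02D3.1*, and the C- mean was 30 without it. In MS+ *par-3* had a lowest value of 0, a median of 1.58 and a highest of 4.82 RPKM, and in MS- it had 2.29, 8.88 and 22.8. Those ranges overlap only between 2.29 and 4.82 RPKM, and *par-3* was lower in MS+ than in MS- in all 7 embryos. In D+ a single library, replicate 2, was at 67.6 RPKM, and the mean of 11.2 RPKM became 1.83 without it. In D- the lowest, median and highest values were 2.74, 7.18 and 26.5. C-in held 0.41, 5.41, 2.22, 23.1 and 20.4 RPKM and C-out 12.2, 0.15, 10.0, 5.16 and 56.8, which overlap over most of their range. Part of the reads of *par-3* could belong to *F54E7.9*, which lies on the other strand of chromosome III and shares 184 bases of exon with it in the WBcel235 annotation.

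*par-6* (chromosome I) had similar means in the rest groups, 61.2 ± 24.2 RPKM in MS- (SD, n = 7), 57.3 ± 43.9 in D- (n = 7) and 62.9 ± 32.3 in C- (n = 5). Its drawn-off means were less alike, 79.4 ± 102 in MS+, 35 ± 69 in D+, 24.1 ± 48.3 in C-in and 77.1 ± 87.5 in C-out. Without the highest library of each, these means were 45.9 (MS+ without replicate 1), 9.27 (D+ without replicate 8), 2.53 (C-in without replicate 6) and 42.5 (C-out without replicate 4). MS+ ranged from 0.39 over a median of 23.8 to 280.5 RPKM, and D+ from 0 over 4.5 to 189.6. The D+ maximum came from replicate 8, which lacks the D marker. C-in was at 1.85, 1.33, 5.75, 1.19 and 110.4 RPKM, so that only replicate 6 exceeded 6 RPKM. C-out was at 110.1, 2.07, 215.7, 30.0 and 27.8 RPKM, above 25 in 4 of 5 libraries.

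*pkc-3* (chromosome II) was high in most D- libraries and low in most D+ libraries. D- ranged from 0.64 over a median of 77.6 to 152.0 RPKM, with 5 of 7 libraries above 25, and D+ ranged from 0.23 over 0.6 to 30.9, with 1 above 25, replicate 4, without which the D+ mean of 5.19 was 0.907. The 0.64 RPKM in D- came from replicate 8, and in the other 6 D- libraries *pkc-3* lay between 22.5 and 152.0. In MS+ the values ran from 0.46 over 2.12 to 89.6 RPKM and in MS- from 9.06 over 64.1 to 108.5. C- was even, at 56.7, 89.0, 131.4, 81.2 and 73.1 RPKM. C-in was at 2.51, 0.54, 0.7, 226.1 and 1.32 RPKM, and its mean of 46.2 became 1.27 without replicate 5. C-out held the highest mean of all groups, 135 ± 145 RPKM, from 123.4, 0, 133.5, 44.9 and 375.5, and its mean without replicate 6 was 75.4, below C- (86.3) and D- (77.3). Of the 5 C-out libraries, 4 were thus above 25 RPKM, and in replicate 2 no read was counted.

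Among the posterior genes, *par-2* (chromosome III) was low in C-out, at 2.61, 0.72, 0.25, 0 and 0.65 RPKM, or 19 counts in 5 libraries. C- was at 54.9, 34.1, 24.98, 8.54 and 26.2 RPKM, so that every C- library was above every C-out library. D+ was also low, from 0.22 over 0.7 to 30.4 RPKM, with 5 of 7 libraries at or below 3 counts, and D- ran from 6.91 over 15.6 to 66.6. Replicate 7 gave the highest value of both D groups. MS+ held 50.2, 86.5, 26.4, 1.28, 23.9, 3.19 and 0.54 RPKM and a mean of 27.4 ± 31.7, beside 33.6 ± 19.1 in MS-. The MS+ mean was 17.6 without replicate 2, the library with little *ceh-51*. C-in had 18.0 and 52.7 RPKM in replicates 1 and 5 and no count in the other 3 libraries.

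*lgl-1* (chromosome X) was at or under 2.14 RPKM in all 7 D+ libraries, with 27 counts in total, and in D- it ran from 0.78 over 14 to 61.0. C- was at 15.6, 51.8, 27.8, 35.2 and 52.2 RPKM, the highest group mean (36.5 ± 15.8). C-out was at 32.1, 0.22, 0.31, 2.03 and 0.81, and the mean of 7.09 RPKM was 0.842 without replicate 1. C-in was at 133.8, 0.57, 0.25, 15.9 and 0.23 RPKM. MS- ran from 0.68 over 10.7 to 36.6, and MS+ had 1 high library as given above.

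*par-1* (chromosome V) had its highest values in drawn-off cells, 220.6 RPKM in D+ replicate 4 and 76.6 in C-in replicate 6. C-in was at 0.56, 0, 54.1, 16.8 and 76.6 RPKM. D+ ran from 0 over 1.39 to 220.6 RPKM, and its mean of 39 became 8.75 without replicate 4, the library with germline and epidermal transcripts, whose partner was also the highest of D-, at 66.2. The part of these transcripts in the level of *par-1* was not tested. D- ran from 2.43 over 14.1 to 66.2. C- held 13.9, 29.1, 9.08, 23.2 and 6.35 RPKM, and C-out 40.4, 0.83, 0.14, 1.9 and 0, of which the first is the library with little C marker. In the MS series *par-1* stayed under 25 RPKM in all 14 libraries, with medians of 2.93 in MS+ and 9.02 in MS-. The length used for *par-1* in the deposited tables was 3516 bases, and the exons of all its isoforms in the WBcel235 annotation cover 6697, so the level of *par-1* against other genes depends on which isoforms are present.

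*par-4* (chromosome V), the kinase gene, was near the floor everywhere. Its highest values were 7.17 RPKM in MS+ replicate 1 and 6.31 in C- replicate 1, and 18 of 43 libraries had no count. A library with no count of *par-4* allows up to between 0.388 and 2.88 RPKM, depending on its depth.

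*par-5* (chromosome IV), the 14-3-3 gene, was high in all groups. MS+ was the most even group, from 129.7 over 215.6 to 248.0 RPKM (mean 209 ± 43.2), and MS- spread from 26.5 over 207.7 to 464.2 (mean 199 ± 140). D+ ran from 15.2 over 396.8 to 1068 (mean 405 ± 333), and D- from 65.8 over 242.9 to 334.9 (mean 237 ± 93.2). C-in was at 273.2, 80.6, 129.9, 132.5 and 1022 RPKM, C-out at 264.5, 719.5, 187.7, 380.7 and 233.7, and C- at 286.0, 307.0, 294.7, 402.5 and 163.4. All 3 C groups overlap.

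The second 14-3-3 gene of the worm, *ftt-2*, is close in sequence to *par-5*, and counting could split reads between them, so the share of each is uncertain. *ftt-2* was at 36.7, 4.86, 4.27, 9.69, 352.7, 11.02 and 7.87 RPKM in MS+ and between 77 and 524 in MS-. *par-5* made up between 41.3% and 98% of the sum of both genes in MS+ (median 94%), with *par-5* above *ftt-2* in 6 of 7 libraries. In C- it made up between 28.6% and 53.2% (median 38.4%), and in D+ between 1.97% and 89.8% (median 52.5%). The plot of the pair shows 6 MS+ libraries apart from most others, at a level of *par-5* that other groups share and at a low level of *ftt-2*. D+ replicate 8 was also low in *ftt-2*, at 15.5 RPKM. For MS+ against MS-, edgeR did not call *ftt-2* (log2 difference -1.35, SE 1.08, adjusted p = 0.631). The edgeR test over all 7 groups, given below, did call it (adjusted p = 0.0392).

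**Figure D3:**
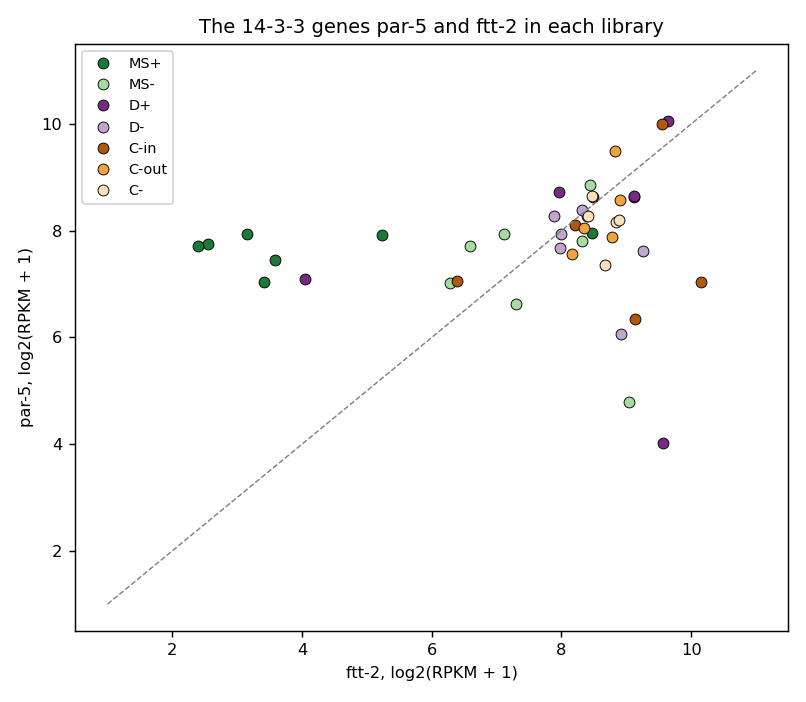
Levels of *par-5* (y axis) against *ftt-2* (x axis) in each of the 43 libraries, as log2(RPKM + 1), with color giving the group and the dashed line marking equal levels. In 6 of 7 MS+ libraries *ftt-2* lies at or below 36.7 RPKM, with *par-5* between 129.7 and 243.1.

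When the 7 groups were placed in order of their mean RPKM, none of the 48 neighbouring pairs (6 for each gene) was further apart than the larger of its 2 SDs. The order ran C-, C-out, MS-, D+, C-in, D-, MS+ for *par-3* and MS-, C-, MS+, D-, C-in, D+, C-out for *par-2*. It ran C-, C-in, MS+, D-, MS-, C-out, D+ for *lgl-1* and C-out, C-, D-, MS-, C-in, MS+, D+ for *pkc-3*. The first and the last group were further apart than the larger SD for *par-3*, *par-2* and *lgl-1*, and not for the other 5 genes.

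The comparison of MS+ with MS- asks which transcripts the internalizing MS descendants hold more or less of than the rest of their embryos. Of the 8 genes, 4 passed the filter of more than 25 RPKM in at least 7 libraries. By edgeR's quasi-likelihood test on counts, none of these 4 differed at a Benjamini-Hochberg adjusted p under 0.05, and none did at an unadjusted p under 0.05 either. Over all 3730 genes tested the share called was 0.322%. *par-6* had a log2 difference of 0.72 (SE 0.993, adjusted p = 0.808), *pkc-3* of -0.91 (SE 1.04, adjusted p = 0.755), *par-2* of 0.07 (SE 0.978, adjusted p = 0.982) and *par-5* of 0.83 (SE 0.674, adjusted p = 0.637). The median of all genes tested was at 0.57 on this scale and moved to -0.48 with limma on log2(RPKM + 25), and the signs of *par-6* and *par-2* differed between edgeR and limma, while *pkc-3* was below 0 and *par-5* above 0 in both. In the D series, C-in against C-out, C-in against C- and C-out against C- the same median was at 0.64, 0.25, 0.65 and 0.33, and with limma at -0.52, 0.05, -0.59 and -0.58, and the log2 differences of edgeR below are to be read against it. *pkc-3* was lower in MS+ in 6 of 7 embryos. limma called none of the 4, and DESeq2 gave an adjusted p for *par-5* alone (0.0789). Of the genes under the filter, *par-3* was lower in MS+ by 0.41 on the mean of log2(RPKM + 25), in 7 of 7 embryos (exact permutation test, two-sided, unadjusted p = 0.00291, n = 7 each), and with any single embryo left out the exact permutation p was 0.00216 to 0.0108. Over all 8487 genes under the filter with more than 3 counts in a library, 15.9% were lower in MS+ at that unadjusted threshold, and edgeR without the filter gave *par-3* an adjusted p of 0.493, with 1.7% of 20435 genes called. *par-3* was under 25 RPKM in every library of both groups, with highest values of 4.82 in MS+ and 22.8 in MS-. *par-1* (-0.12, exact p = 0.502), *lgl-1* (-0.24, exact p = 0.699) and *par-4* (-0.02, exact p = 0.858) gave no difference beyond the spread. Without replicate 1, the only MS+ library with *lgl-1*, the difference of *lgl-1* was -0.56, a value that describes the other 6 embryos and is no test, since the library was left out for its level.

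The comparison of D+ with D- asks the same for the D descendants, which give rise to body wall muscle. Only *par-6* and *par-5* passed the filter, and edgeR called neither, at the adjusted or the unadjusted threshold, with 0.296% called over all 3039 genes tested. *par-6* had a log2 difference of 0.10 (SE 1.23, adjusted p = 0.991), and without embryo 8 it no longer passed the filter. For *par-5* the difference was 1.51 (SE 0.811, adjusted p = 0.655), with *par-5* higher in 6 of 7 embryos. DESeq2 called *par-5* (log2 difference 2.36, adjusted p = 0.0163) among 509 genes or 16.7%, with the median of all genes tested at 1.23, and limma called neither. Over all alternatives the adjusted p of *par-5* ran from 0.0163 to 1. The other 6 genes were compared by exact permutation, and 3 of them were lower in D+ at an unadjusted p under 0.05. *pkc-3* was lower by 1.57 on the mean of log2(RPKM + 25), in 6 of 7 embryos (exact permutation test, two-sided, p = 0.00641, n = 7 each). *lgl-1* was lower by 0.69 in 6 of 7 embryos (exact p = 0.00699) and *par-2* by 0.64 in 7 of 7 (exact p = 0.0192). Over all 9226 genes under the filter with more than 3 counts in a library, 14.6% were lower in D+ at the same threshold. Without embryo 8 the differences were -1.84 for *pkc-3* (exact permutation p = 0.00433), -0.80 for *lgl-1* (0.00649) and -0.69 for *par-2* (0.0238). The share of 14.6% refers to all 7 embryos. No such share is given without embryo 8, so these values have no background beside them. Without replicate 2 or 3, *par-2* lost the threshold (exact permutation p = 0.0606 and 0.0563). edgeR without the filter gave log2 differences of -3.22 (SE 1.48, adjusted p = 0.217) for *pkc-3*, -4.06 (SE 1.76, adjusted p = 0.186) for *lgl-1* and -1.45 (SE 1.62, adjusted p = 0.61) for *par-2*, and called 1.22% of all 23178 genes. *par-3* (-0.10, exact p = 0.77), *par-1* (0.02, exact p = 0.983) and *par-4* (0.00, exact p = 1) did not differ beyond their spread, although *par-3* was lower in D+ in 6 of 7 embryos.

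**Figure D4:**
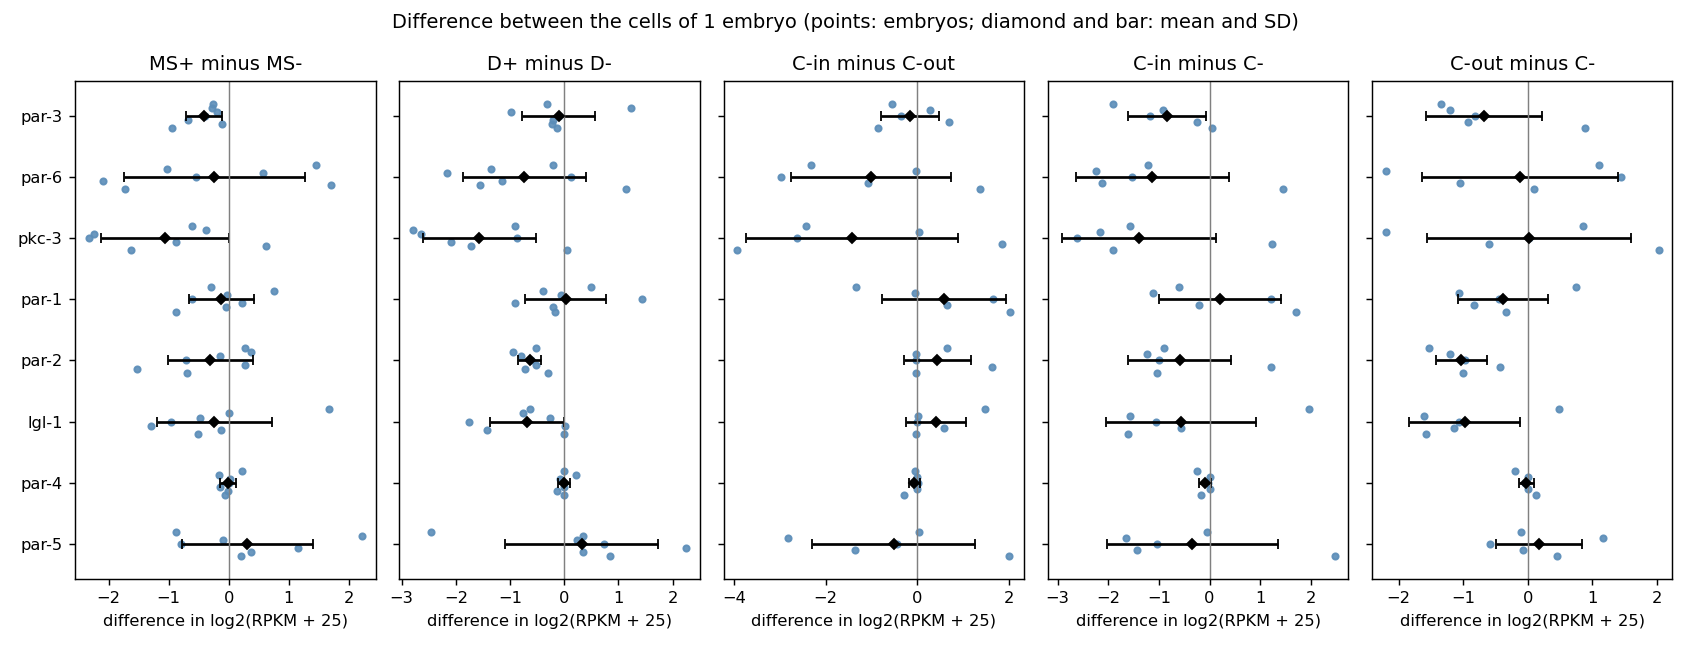
Difference in log2(RPKM + 25) between libraries of the same embryo, with the first-named group minus the second, for each gene and each of the 5 comparisons. Points are embryos (n = 7 in MS and D, n = 5 in C), diamonds are means and bars are SDs. All 7 points of *par-3* in the MS series, all 7 of *par-2* in the D series and all 5 of *par-2* for C-out minus C- lie below 0.

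C-in and C-out are sister groups of the same lineage, and their comparison asks what sets the cells that move inside apart from those that stay out. Among the 8 genes, *par-6*, *pkc-3* and *par-5* passed the filter and none was called by edgeR, DESeq2 or limma, nor at an unadjusted p under 0.05 by edgeR, with 5.66% called over all 2208 genes tested. The means of *par-6* and *pkc-3* were lower in C-in, by -1.85 (SE 1.56, adjusted p = 0.689) and -1.90 (SE 1.7, adjusted p = 0.718) on the log2 scale, and *par-5* was at -0.32 (SE 0.945, adjusted p = 0.944). *par-6* was lower in C-in in 4 of 5 embryos and *pkc-3* in 3 of 5. No gene under the filter passed the exact permutation test: the smallest p was 0.262, for *par-1*, which was higher in C-in by 0.58 on log2(RPKM + 25), and 6.03% of such genes were lower in C-in at an exact p under 0.05. With 5 libraries against 5, no p below 0.00794 is possible.

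The comparison of C-in with C- sets the internalizing C descendants against the cells of the embryo outside the C lineage. *par-6*, *pkc-3*, *lgl-1* and *par-5* passed the filter, and edgeR called none, at the adjusted or the unadjusted threshold, with 6.44% called over all 3572 genes tested. limma called none either, nor did DESeq2 for *par-6* and *par-5*, the 2 to which it gave an adjusted p. Their log2 differences were -0.83 (SE 1.29, adjusted p = 0.768), -0.67 (SE 1.42, adjusted p = 0.835), 0.27 (SE 1.45, adjusted p = 0.941) and 0.76 (SE 0.79, adjusted p = 0.651), in that order. A single C-in library set each of the first 3 values. Without replicate 5 *pkc-3* was at -5.49 on the log2 scale, lower in C-in in all 4 remaining embryos. This was past the threshold (edgeR, adjusted p = 0.0399, from 0.0399 to 0.986 over the alternatives), but the library left out was the only C-in library with *pkc-3*, and the gene then passed the filter through C- alone, so the value is a description and no test. Without replicate 6 *par-6* was at -4.03, and without replicate 1 *lgl-1* was at -2.73, with the same limit. With the embryo as a block edgeR called 11 genes in place of 230, and none of the 8. *par-3* was lower in C-in by 0.84 on the mean of log2(RPKM + 25), in 4 of 5 embryos (exact permutation test, two-sided, p = 0.0238, n = 5 each), beside 19.6% of 7229 genes under the filter that were lower at this threshold. Permuting signs within embryos gave *par-3* an exact p of 0.125, and edgeR without the filter an adjusted p of 0.575, with 0.841% of genes called. *par-2* was at -0.59 (exact p = 0.151). *par-1* (0.20, exact p = 0.667) and *par-4* (-0.09, exact p = 0.286) did not differ beyond their spread.

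The comparison of C-out with C- sets the C descendants of the surface against the same rest of the embryo, and it shares the C- libraries with the comparison before. Here 5 genes passed the filter and edgeR called none, beside 0% of all 4079 genes tested, where 643 genes or 15.8% had an unadjusted p under 0.05. DESeq2 called 456 genes and limma 0. *par-5* was the only one of the 5 at an unadjusted p under 0.05, with a log2 difference of 2.02 (SE 0.947, unadjusted p = 0.0464, adjusted p = 0.311), while its mean RPKM was 357 ± 215 in C-out and 291 ± 85.2 in C- and it was higher in 2 of 5 embryos. The difference of *par-5* was 0.28 without TMM scaling and 0.43 without replicate 2. *lgl-1* was at -2.17 (SE 1.19, adjusted p = 0.38), lower in 4 of 5 embryos. It was at -5.08 without replicate 1, whose C-out library held little of the C marker. That library was the only C-out library with *lgl-1* above 25 RPKM. The gene then passed the filter through C- alone, so the value is a description and no test. *par-3* was at -0.70 (SE 1.02, adjusted p = 0.759), *par-6* at 0.82 (SE 1, adjusted p = 0.71) and *pkc-3* at 1.10 (SE 1.04, adjusted p = 0.613). limma called none of the 5, nor did DESeq2 for the 3 to which it gave an adjusted p (*par-3*, *par-6* and *pkc-3*). With the embryo as a block edgeR called 18 genes in place of 0, again none of the 8. *par-2*, under the filter, was lower in C-out by 1.03 on the mean of log2(RPKM + 25), in 5 of 5 embryos and with no overlap between the groups (exact permutation test, two-sided, p = 0.00794, n = 5 each, the smallest p that 252 assignments allow). Of 7308 genes under the filter with more than 3 counts in a library, 6.68% were lower in C-out at the unadjusted threshold and 1.29% were without overlap in this direction. Leaving out any single embryo left *par-2* lower by 0.90 to 1.18, with an exact permutation p of 0.0286, the smallest that 4 against 4 allow. Groups without overlap stay so when an embryo is left out, so this p was fixed in advance and adds nothing. Signs permuted within 5 embryos cannot give less than 0.0625, which was the p of *par-2*, and edgeR without the filter gave a log2 difference of -4.49 (SE 1.96, adjusted p = 0.252, with 1.66% of 14694 genes called). *par-1* was at -0.38 (exact p = 0.246). Without replicate 1, the only C-out library with *par-1* above 1.9 RPKM, *par-1* was at -0.67. That value describes the other embryos and is no test. *par-4* was at -0.02 (exact p = 0.762).

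**Figure D5:**
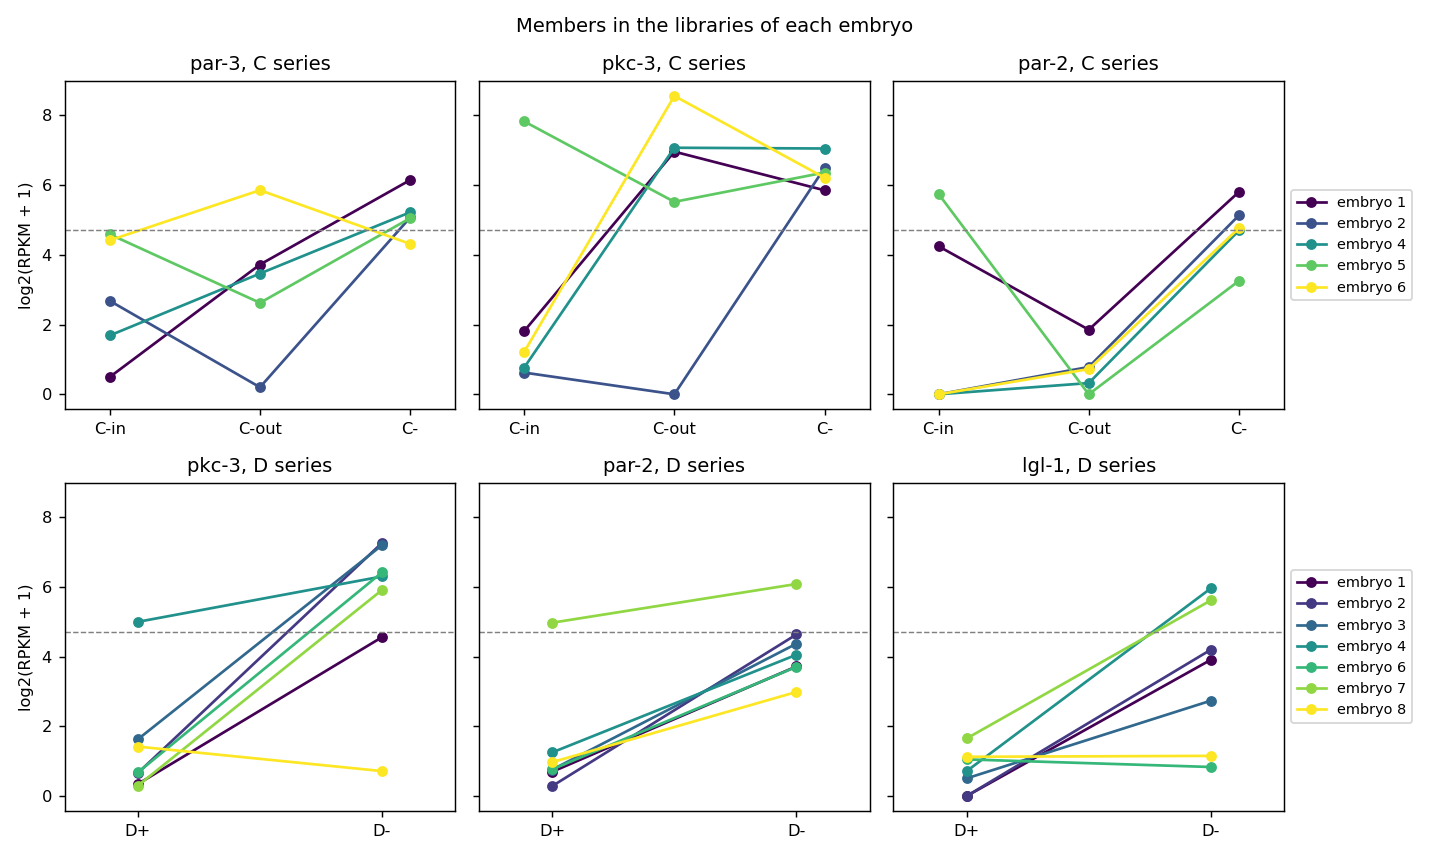
Levels of 3 members in each embryo of the C series (top) and of the D series (bottom), as log2(RPKM + 1), with lines joining libraries of 1 embryo and the dashed line at 25 RPKM. *par-2* lies lower in C-out than in C- in 5 of 5 embryos and lower in D+ than in D- in 7 of 7, *pkc-3* and *lgl-1* lie lower in D+ in 6 of 7, and *pkc-3* in C-in is high in embryo 5 alone.

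Over the 5 comparisons, 18 of the 40 pairs of gene and comparison passed the filter and 22 did not. Of the 22, 6 had an exact p under 0.05, and in each of the 6 the gene was lower in the drawn-off cells. Over all 40 pairs the same test gave 9. The further ones, also lower, were *pkc-3* in MS (exact p = 0.0309) and in C-in against C- (0.0476), and *lgl-1* in C-out against C- (0.0238). In these comparisons 15.5%, 19.6% and 9.96% of all genes with more than 3 counts in a library were lower at this threshold. Of all genes under the filter, 15.9%, 14.6%, 6.03%, 19.6% and 6.68% were lower at this threshold in MS, D, C-in against C-out, C-in against C- and C-out against C-, and 0.189%, 0.184%, 0.581%, 0.194% and 0.411% were higher, so this direction was also that of the background. The mean of log2(RPKM + 25) was lower in the drawn-off cells for 7 of 8 members in MS, 5 of 8 in D, 7 of 8 for C-in against C- and 6 of 8 for C-out against C-, and lower in C-in than in C-out for 5 of 8. All genes with more than 3 counts in a library leaned the same way, with 80.4%, 80.2%, 81.6%, 74.4% and, for C-in against C-out, 64.3% lower. In the same order, the median difference of the 8 was -0.24, -0.37, -0.58, -0.25 and -0.11, beside -0.18, -0.17, -0.30, -0.22 and -0.10 over those genes. The exact p-values above ignore the pairing by embryo. With signs permuted within embryos, *pkc-3* in MS had an exact p of 0.0625. It was 0.125 for *pkc-3* and *par-3* in C-in against C-, and 0.125 for *lgl-1* and 0.0625 for *par-2* in C-out against C-. Only *par-3* in MS (0.0156) and *par-2* (0.0156), *pkc-3* (0.0312) and *lgl-1* (0.0469) in D stayed under 0.05.

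A test for any difference among the 7 groups was made by edgeR on all 43 libraries. It called none of the 7 members that passed the filter (*par-4* did not), beside 33.1% of 6840 genes. The adjusted p was 0.116 for *par-5*, 0.175 for *lgl-1*, 0.186 for *pkc-3*, 0.2 for *par-2*, 0.262 for *par-3*, 0.263 for *par-1* and 0.917 for *par-6*, and no unadjusted p was under 0.05, beside 44.5% of genes. DESeq2 called *par-5* (adjusted p = 4.77e-05), *par-1* (0.00586) and *par-3* (0.0265) among 62.7% of genes. Median-ratio scaling in edgeR called *par-5* (adjusted p = 0.00521) and *par-1* (0.0487) among 48.8% of genes. Whether the difference between drawn-off and remaining cells changed from one series to another was tested by an interaction term in 21 tests on the 7 members. None passed the adjusted threshold, and 1 had an unadjusted p under 0.05, *lgl-1* between MS and D, with a log2 difference of 4.68 (SE 2.02, edgeR adjusted p = 0.186).

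Genes that work with the PAR proteins were counted in 6 lists of 63 genes, all found in the tables. Across the 5 comparisons edgeR called 2 of them, both lower in C-in than in C-, of 29 tested there, and none in the other 4 comparisons. Over all genes 6.44% were called in C-in against C-, so 2 of 29 is near the background. Both genes had all 5 C- libraries and no C-in library above 25 RPKM, and so passed the filter only through the group in which they were high. *ect-2*, which encodes a guanine nucleotide exchange factor needed for cortical flow, was at 2.82, 0.23, 0.59, 4.56 and 0.55 RPKM in C-in and between 41.9 and 110.0 in C-, a log2 difference of -4.94 (SE 1.15, edgeR adjusted p = 0.0198). *let-413*, the worm Scribble, a basolateral protein of epithelia, was at 1.41, 2.16, 17.5, 6.55 and 1.99 RPKM in C-in and between 132 and 204 in C-, a log2 difference of -4.26 (SE 1.04, edgeR adjusted p = 0.0237). Both were lower in 5 of 5 embryos without overlap, as were 7.38% of 10801 genes with more than 3 counts in a library. With the embryo as a block the edgeR adjusted p of *ect-2* and *let-413* was 0.0797 and 0.08. Leaving out single embryos gave 0.0402 to 0.0636 for *ect-2* and 0.0514 to 0.0702 for *let-413*. Neither passed the filter for C-in against C-out, where *let-413* was at 96.7, 0.63, 251.7, 144.4 and 247.5 RPKM in C-out and *ect-2* was at or under 2.41 RPKM in all but replicate 1. At an unadjusted p under 0.05 there were 4, 1, 1, 6 and 3 genes of the lists in MS, D, C-in against C-out, C-in against C- and C-out against C-, of 27, 29, 19, 29 and 33 tested, beside 12.3%, 8.03%, 14.4%, 17.5% and 15.8% of all genes. DESeq2 called 6, 2, 2, 9 and 3, beside 437 of 3730, 509 of 3039, 285 of 2208, 898 of 3572 and 456 of 4079 genes in all.

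Among 10 genes of CDC-42 and its regulators, none was called in any of the 5 comparisons, and *cdc-42* itself was at 487 ± 133 RPKM in C-, 134 ± 229 in C-in and 443 ± 285 in MS+. *daf-21*, the worm Hsp90, was at 700 ± 595 RPKM in C-in and 313 ± 92.4 in C- (edgeR adjusted p = 0.0862). Among 12 genes of actomyosin and cortical flow, *mlc-4*, a regulatory light chain of myosin, was at 476 ± 488 RPKM in C-in and 173 ± 44.9 in C- (edgeR adjusted p = 0.355). Of the 11 cytoplasmic polarity genes, the kinase genes *mbk-2* and *air-1* were the most abundant, *air-1* with 23.6 ± 28.8 RPKM in C-in and 202 ± 72.3 in C- (edgeR adjusted p = 0.251). Of 10 spindle orientation genes the G alpha gene *goa-1* averaged 186 RPKM and the LGN-like *gpr-2* 128 RPKM over all libraries, and of 11 junction genes the alpha-catenin gene *hmp-1* averaged 127 RPKM and *erm-1* 115 RPKM. The list with the cofactors of PAR-4, the kinases related to PAR-1 and the second 14-3-3 had *ftt-2* (341 RPKM) and the AMP kinase gene *aak-2* (68.4 RPKM) as its most abundant genes.

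The test over the 7 groups called 11 of the 48 genes of these lists that passed its filter, or 22.9%, beside 33.1% of all genes. These were *picc-1*, *cgef-1*, *ect-2*, *mex-5*, *mex-3*, *pos-1*, *dhc-1*, *dlg-1*, *ajm-1*, *mop-25.1* and *ftt-2*, with edgeR adjusted p-values between 0.000131 and 0.0408. The junction genes *dlg-1* and *ajm-1* had their highest group mean in C-out, 337 ± 114 and 169 ± 187 RPKM, and *cgef-1*, which encodes an exchange factor for CDC-42, had 122 ± 165 there. *mex-3*, an RNA-binding regulator, had no count in any of the 5 C-in libraries and 66.5 ± 83.4 RPKM in D-.

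Correlations between members from library to library were mostly low. Over 43 libraries that share strains, embryos and depth in part, the Pearson correlation of log2(RPKM + 25) between 2 members had a median of 0.13 over 28 pairs, from -0.15 to 0.52, and a median of 0.12 after group means were removed. The highest values were 0.52 for *par-3* with *par-4* (Spearman 0.38) and 0.51 for *par-3* with *pkc-3* (Spearman 0.61), and *par-6* with *pkc-3* was at 0.36 (Spearman 0.44). *par-4* had at most 3 counts in 28 of the 43 libraries and was never above 25 RPKM, so its correlations rest on values near the floor. Among 5317 genes above 25 RPKM on average, those with the pattern most like *pkc-3* were *vha-12* (r = 0.77), *Y32H12A.7* (r = 0.73) and *C14A4.11* (r = 0.71). For *par-6* they were *Y66D12A.10* (r = 0.70), *ZC262.8* (r = 0.69) and *rap-2* (r = 0.68), and for *par-5* they were *Y37D8A.18* (r = 0.63), *Y77E11A.6* (r = 0.63) and *F41C3.4* (r = 0.61). The same embryo gave the highest value in both groups for 2 of 8 members in MS (*par-3* and *par-2*) and 2 of 8 in D (*par-1* and *par-2*), beside 15.7% and 15.4% of genes above 25 RPKM in a library of each group. In C-in against C-out, C-in against C- and C-out against C- it did so for 1 of 8 members each, beside 21.5%, 23.1% and 20.3% of genes.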

How the data were processed

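Read counts per gene were deposited by the authors as whole numbers for each library, with the length of each gene and no pooling of replicates. RPKM values in the same tables were made by the authors from the counts, the gene lengths and a library total. Processing notes of the submitters name the build ce10 and bedtools, and the aligner, the counting program and any use of strand were not given in the sources used here. Coverage tracks were not used here. Gene IDs, chromosomes and shared exons came from the Ensembl annotation of WBcel235, and no coordinates are given because the builds differ. Overlapping genes on opposite strands could share reads.

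Counts were compared with edgeR 4.0.16 (R 4.3.3; TMM scaling, quasi-likelihood test, Benjamini-Hochberg adjustment over all genes tested, threshold 0.05) among genes above 25 RPKM in a number of libraries no smaller than the smaller group. The SE of a log2 difference was derived from its size and F value. Members under this filter were compared by a two-sided exact permutation test on the mean of log2(RPKM + 25), a scale that understates changes of low genes, with no adjustment over the 22 tests. Alternatives were DESeq2 1.42.0, limma 3.58.1 on log2(RPKM + 25), median-ratio scaling, library totals, no filter, filterByExpr, a pseudocount of 1, the embryo as a block and each embryo left out. Scripts were tested on simulated data. Scripts used Python 3.11.15 with scipy 1.17.1.

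Libraries of 1 series with the same replicate number are from 1 embryo by design, and after removing group means their mean correlation over 5317 genes was between 0.020 and 0.051, against -0.013 to -0.005 for other pairs. Groups came from the sample labels. The members and the gene lists were chosen with earlier results of these data known. All 8 members are named in each comparison. Genes of the lists are named where they passed a test and otherwise where they were among the 2 most abundant of their list, except for 1 gene that is not reported here, and for members above 25 RPKM on average the 3 genes with the highest correlation are given. *picc-1* is listed under its sequence name in the tables. Whether embryos of 1 group came from separate cultures is not stated, so p-values measure the spread between embryos only.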

Additional observations from a re-analysis of the deposited data

Results flagged for a closer look

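A single library lay far from the others of its group, by Dixon's test on log2(RPKM + 25), for 17 of 56 pairs of gene and group, or 30.4%. Chance flags about 1 in 20 groups, but in these libraries 38.4% of all 65823 pairs of gene and group with more than 3 counts in a library were set apart in this way, so the share among the members is no larger than that of other genes. Of the 17, 15 were high, and 14 were in groups of drawn-off cells. High libraries were *par-3* in D+ replicate 2 (67.62 RPKM), *par-6* in D+ replicate 8 (189.55) and in C-in replicate 6 (110.4), *pkc-3* in D+ replicate 4 (30.89) and in C-in replicate 5 (226.09), *par-2* in D+ replicate 7 (30.35) and in D- replicate 7 (66.62), and *lgl-1* in MS+ replicate 1 (170.03) and in C-in replicate 1 (133.82). C-out replicate 1, which held little of the C marker, was high for *par-1* (40.39 RPKM), *par-2* (2.61) and *lgl-1* (32.08). *par-4* was set apart in MS+ replicate 1 (7.17 RPKM), D+ replicate 2 (4.28) and C-in replicate 1 (1.4), all under 25 RPKM. Low libraries were *pkc-3* in MS- replicate 2 (9.06 RPKM) and *par-5* in D- replicate 8 (65.77). 

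The 8 libraries of the 3 embryos that the authors rejected entered no comparison. More than 3 counts were found in 8 of the 8 for *pkc-3* and *par-5*, in 7 for *par-6*, in 6 for *par-3* and *lgl-1*, in 5 for *par-1*, in 4 for *par-2* and in 2 for *par-4*. *par-5* lay between 37.7 and 542 RPKM in them and *pkc-3* between 4.29 and 50.4.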

How the results depend on the processing

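In MS the 12 genes became 437 with DESeq2, 82 with limma, 4 with median-ratio scaling, 347 without the filter and 34 with filterByExpr, and 0 to 36 with single embryos left out. In D the 9 became 509, 33, 282 and 74 with DESeq2, limma, no filter and filterByExpr, and 0 to 105 with single embryos left out, of which 105 was without replicate 8. For C-in against C-out the 125 became 285, 289 and 198 with DESeq2, no filter and filterByExpr, and 81 to 192 with embryos left out. For C-in against C- the 230 became 898, 404, 121 and 405 with DESeq2, limma, no filter and filterByExpr, 11 with the replicate block, and 0 to 314 with embryos left out, of which 0 was without replicate 4. For C-out against C- the 0 became 456 with DESeq2, 244 without the filter, 18 with the replicate block and 0 to 6 with embryos left out. Over the 7 groups the 2263 became 8953 without the filter and 4287 with DESeq2. Members called were 0 in each comparison by edgeR, 1 in D with DESeq2, 0 to 1 for C-in against C- with embryos left out, and over the 7 groups 2 with median-ratio scaling and 3 with DESeq2. The cause was not tested. Under the block no other call changed than those given beside their results. No called difference of a member or named gene changed sign. The alternative for genes with a stand-in length did not apply, since all members have their own. Depth limits *par-4* and the low values of *par-2* and *lgl-1*, which lie at or below the floor of 3 counts in many drawn-off libraries.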
